A study of Mus musculus with 37 samples.

Results

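Spo11, Mei1, Mei4, Rec114, Dmc1, Mnd1, Psmc3ip, Msh4, Msh5 and Hfm1 are meiotic recombination genes, and their RNA was followed here in mouse primordial germ cells, the embryonic precursors of eggs and sperm. The 10 genes were chosen by symbol for their roles in break formation, strand exchange and crossing over, and all 10 were found among the 24318 genes listed in each table. Germ cells marked by green fluorescent protein from an Oct4-IRES-Gfp reporter were sorted from embryos, and their polyadenylated RNA was amplified and sequenced. The conditional knockout, DCKO, is labelled Dnmt1 -/- and comes from mating homozygous Dnmt1 2lox females to Blimp1-Cre males; the Cre is driven from Blimp1, a gene active in germ cells from their specification. The controls are labelled wild type, the same crosses are given for them, and the labels do not say which of the floxed and Cre alleles a control carried. The E11.5 set held 6 female and 4 male DCKO libraries (10 in all) beside 4 female and 4 male controls (8 in all). The E10.5 set held 2 female DCKO libraries and 1 male one (3 in all) beside 2 female and 2 male controls (4 in all). The titles give each of these libraries a code of its own made of a pair of numbers, and no label says what the numbers stand for or states that libraries of a group come from different embryos. A p-value here therefore reflects differences among libraries, part of which may be technical.

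In meiosis, SPO11 cuts both DNA strands, with MEI1, MEI4 and REC114 among the partners it needs. DMC1, helped by the MND1 and PSMC3IP (HOP2) pair, then leads the broken end into the homologous chromosome, and MSH4, MSH5 and the helicase HFM1 stabilise those joints so that some become crossovers. Female mouse germ cells enter meiosis only after the stages sampled here, and male germ cells do so after birth. DNMT1 copies DNA methylation onto the new strand at replication, and a group of germline genes is known to be silenced by promoter methylation in cells outside the germ line.

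No difference between DCKO and control germ cells passed the test among the 7 of these genes tested at E11.5 or the 8 tested at E10.5 (limma adjusted p under 0.05, passed by 0.0237% of all genes tested at E11.5 and by 0% at E10.5). The levels of the genes differed widely from each other. Mnd1 and Psmc3ip were abundant, Rec114 was intermediate, Dmc1, Mei4 and Hfm1 were low, Spo11, Msh4 and Msh5 were near or below 1 RPKM in most libraries, and Mei1 was listed at 0 in most of them. RPKM is a read value scaled by gene length and by library size, and levels of different genes are set side by side on that scale only. The effect of the RNA amplification on such comparisons was not tested, and the gene models used are not known.

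Dnmt1, the targeted gene, averaged 29.6 ± 16.3 RPKM in DCKO and 130 ± 76.6 RPKM in control libraries at E11.5 (SD, n = 10 and 8). Every DCKO library lay below every control library for Dnmt1 at both stages. Eif2s3y, a Y-linked gene, was between 0 and 0.275 RPKM in all female libraries and between 19.4 and 70.2 RPKM in all male libraries, as the sex labels say. All 10 markers of germ cells had a median of at least 1 RPKM in both genotypes. Markers of other cells (31 genes of gonadal soma, mesenchyme, endothelium, red cells and macrophages) stood apart in a few libraries. Their mean log2(RPKM + 1) was 2.03 in E11.5 male DCKO 1, 3.16 in female DCKO 4 and 4.00 in male control 3, and 2.28 in E10.5 male control 2. In E11.5 male control 3 the germ cell markers averaged 3.85 on that scale, the lowest of the 18 libraries. At E11.5 the summed mesenchyme markers ran from 0.906 to 336 RPKM in DCKO and from 0.838 to 507 RPKM in control libraries, and the summed red cell markers ran from 0 to 1635 RPKM in DCKO and from 0.665 to 2229 RPKM in control libraries. The summed macrophage markers had a median of 0.197 RPKM in DCKO and 5.25 RPKM in control libraries at E11.5, and highest values of 6.72 and 42.9 RPKM. At E10.5 the summed red cell markers had a median of 4.76 RPKM in DCKO and 366 RPKM in control libraries, with ranges of 3.85 to 2141 and 2.76 to 1019 RPKM, which overlapped. Of the 8 gonadal soma markers, 0 had a median of at least 1 RPKM in DCKO and 2 in control libraries at E11.5. Genotype fold changes of the members that moved by over 1.5 times without the libraries over 2 on that scale, or in a fit with that mean as a covariate, are given both ways below; 0 members passed the threshold in either.

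At E11.5 the DCKO medians ran in the order Mnd1 (63.0 RPKM), Psmc3ip (45.1), Rec114 (10.02), Dmc1 (3.58), Mei4 (2.91), Hfm1 (2.66), Msh4 (0.392), Spo11 (0.169), Msh5 (0.0519) and Mei1 (0.0134). In control germ cells the order of the medians was Psmc3ip (43.6 RPKM), Mnd1 (31.9), Rec114 (15.8), Dmc1 (2.33), Hfm1 (2.05), Spo11 (1.30), Mei4 (1.28), Msh5 (0.433), Msh4 (0.127) and Mei1 (0). The ranges of every pair of neighbours in both orders overlapped. Psmc3ip was nevertheless above Rec114 within each of the 10 DCKO libraries, whereas Mnd1 was above Psmc3ip in 7 of those 10 and Psmc3ip above Mnd1 in 4 of the 8 control libraries. At E10.5 the first 3 places were held by the same genes, with medians of 63.7 RPKM for Mnd1, 39.6 for Psmc3ip and 19.1 for Rec114 in DCKO, and of 61.4 RPKM for Psmc3ip, 21.3 for Mnd1 and 5.85 for Rec114 in control cells. The RNAs of both subunits of the strand exchange cofactor thus had medians well above that of Dmc1, whose product they assist. Protein was not measured.

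**Figure D1:**
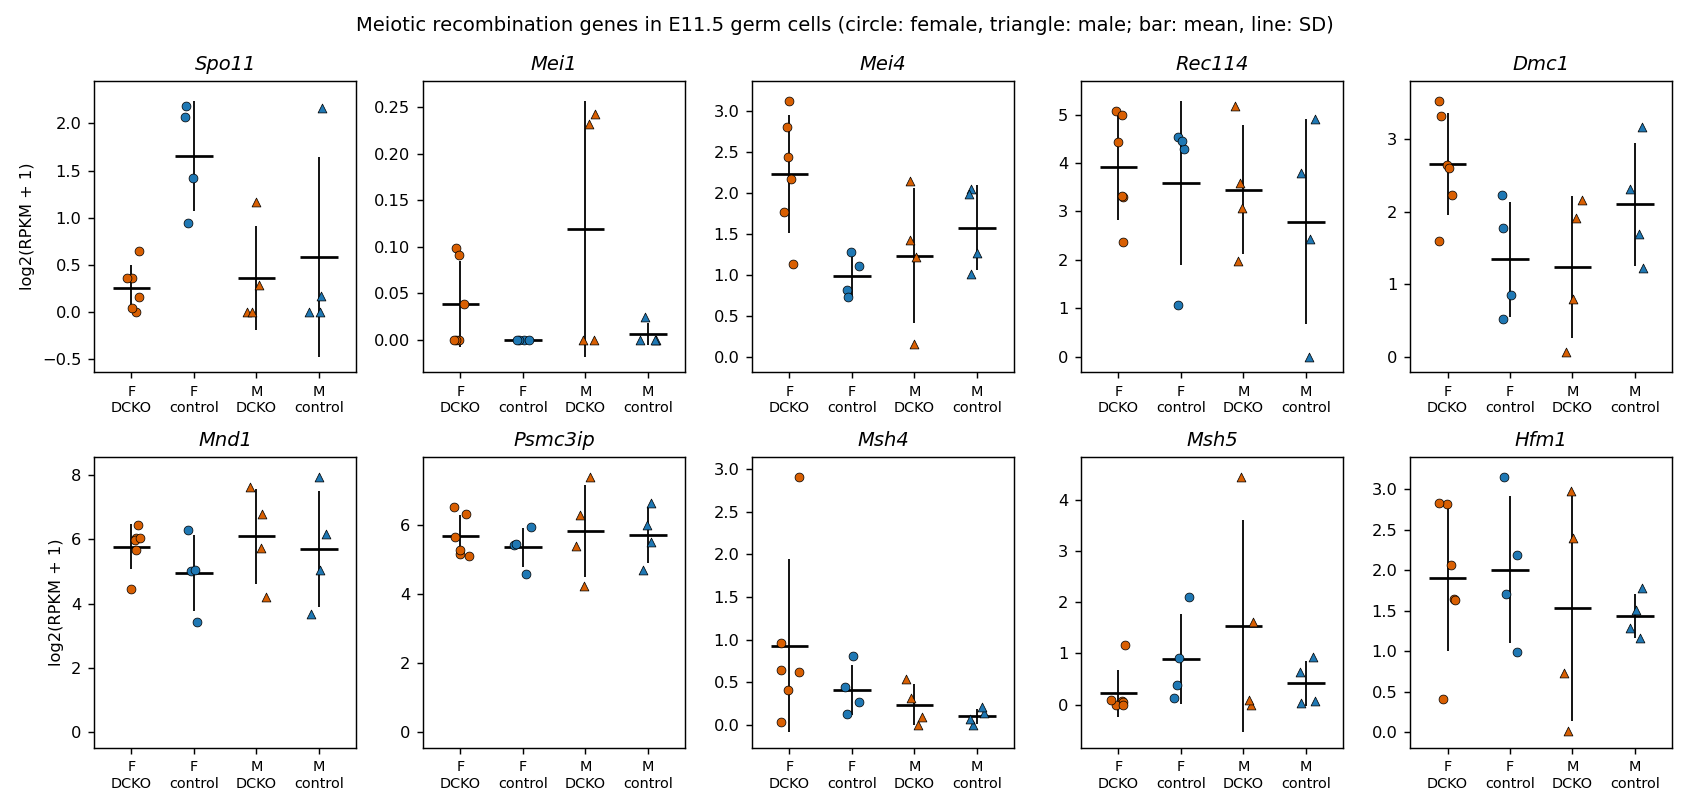
Level of each gene, as log2(RPKM + 1), in every E11.5 library, with DCKO in orange to the left of control in blue for each sex; circles are female and triangles male libraries, bars are group means and vertical lines are SD. Female DCKO libraries lie below all female controls for Spo11, and the 4 groups overlap for Mnd1, Psmc3ip and Rec114.

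Since DNMT1 acts at CpG dinucleotides, the number of CpGs in the 250 bases before each annotated start was counted (RefSeq windows on GRCm38.p6). A window was found for 9 of the 10 genes, without Spo11. The 9 windows held a median of 12 CpGs, against 6 over all 32841 windows (lower quartile 2, upper quartile 16). Hfm1 had the most, 34, followed by Msh5 with 22, Psmc3ip with 19, Mei4 and Dmc1 with 12 each, Rec114 with 10, Mei1 and Mnd1 with 8 each and Msh4 with 4. Levels did not follow that order throughout. Mnd1, with 8 CpGs, had among the highest values, and Hfm1, with 34, was below 8 RPKM in every E11.5 library. Psmc3ip, with 19, was also abundant, and Msh4, with 4, was low. Whether level and CpG number are related over the 9 windows was not tested. The windows of the genes with the most and the fewest CpGs, of Rec114, and of the abundant Mnd1 and Psmc3ip are shown 5′ to 3′ on the strand of the gene, with each CpG in capitals.
Hfm1 chr5:106925891-106926140, minus strand: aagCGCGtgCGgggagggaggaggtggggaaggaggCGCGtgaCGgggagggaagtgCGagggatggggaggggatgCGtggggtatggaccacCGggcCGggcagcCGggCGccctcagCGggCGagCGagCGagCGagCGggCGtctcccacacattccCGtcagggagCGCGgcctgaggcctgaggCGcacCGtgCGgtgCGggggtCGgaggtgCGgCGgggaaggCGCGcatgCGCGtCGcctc
Psmc3ip chr11:101095436-101095685, minus strand: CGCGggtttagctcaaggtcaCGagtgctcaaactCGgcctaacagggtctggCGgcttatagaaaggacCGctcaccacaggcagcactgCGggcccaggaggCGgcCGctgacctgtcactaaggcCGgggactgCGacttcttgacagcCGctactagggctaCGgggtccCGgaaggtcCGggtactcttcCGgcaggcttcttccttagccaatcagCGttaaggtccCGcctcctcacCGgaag
Rec114 chr9:58741560-58741809, minus strand: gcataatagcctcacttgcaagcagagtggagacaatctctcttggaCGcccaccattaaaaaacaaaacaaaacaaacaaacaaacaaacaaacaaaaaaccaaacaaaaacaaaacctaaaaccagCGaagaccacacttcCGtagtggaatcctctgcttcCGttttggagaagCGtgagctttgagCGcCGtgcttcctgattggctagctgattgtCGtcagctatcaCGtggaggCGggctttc
Mnd1 chr3:84155787-84156036, minus strand: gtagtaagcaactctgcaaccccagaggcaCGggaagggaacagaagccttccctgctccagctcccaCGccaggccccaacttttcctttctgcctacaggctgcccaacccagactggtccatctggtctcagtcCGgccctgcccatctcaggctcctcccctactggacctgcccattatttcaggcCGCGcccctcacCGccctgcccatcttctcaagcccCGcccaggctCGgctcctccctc
Msh4 chr3:153904892-153905141, minus strand: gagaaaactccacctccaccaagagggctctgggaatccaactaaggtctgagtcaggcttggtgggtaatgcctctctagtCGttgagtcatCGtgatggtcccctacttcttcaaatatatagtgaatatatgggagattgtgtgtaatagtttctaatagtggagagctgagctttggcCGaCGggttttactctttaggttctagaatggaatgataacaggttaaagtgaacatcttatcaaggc
The sequence CACGTG, bound by E-box factors, was searched for as written (it reads the same on both strands) and was found in the Rec114 window alone among the 9, near its 3′ end, and in 6.02% of all windows. GCGGGAA, a site of the E2F type, was searched for on both strands and found in the Msh5 window alone, and in 3.82% of all windows. The matches stand in different windows, so none overlaps another. The files hold no methylation values, so no level is set against the methylation of these windows.

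Of Spo11, Mei1, Mei4 and Rec114, the members that act in double-strand break formation, Rec114 was the only one with values above 10 RPKM. REC114 forms a complex with MEI4 on chromosome axes. At E11.5 Rec114 had a lowest, median and highest value of 2.94, 10.02 and 35.0 RPKM in DCKO libraries, and of 0, 15.8 and 28.9 RPKM in control libraries. The ranges overlapped over most of their span, and the control values included 1 library listed at 0 (male control 4). Its log2 fold change was 0.50 (SE 0.67, adjusted p = 0.972 by limma), and it was 0.03 without male control 4. At E10.5 Rec114 had 76.6 and 19.1 RPKM in the female DCKO libraries and 18.7 RPKM in the male one, against 10.6 and 1.11 RPKM in female controls and 0.0876 and 12.2 RPKM in male controls. All 3 DCKO libraries lay above all 4 control libraries, which held for 1 of the 10 genes and for 2.06% of the 17029 genes with any value at E10.5. The fold change on the log2 scale was 2.75 (SE 1.02), with an unadjusted limma p of 0.0249 and an adjusted p of 0.991. The lowest adjusted p of Rec114 under any alternative at this stage was 0.390. Rec114 overlaps Nptn on the opposite strand, and whether the counting used strand is not given in the sources used here, so reads of the genes may not be told apart. Nptn averaged 13.52 ± 1.69 RPKM in DCKO and 18.8 ± 5.02 RPKM in control libraries at E10.5 (SD, n = 3 and 4).

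Mei4, the partner of Rec114 in that complex, had a lowest, median and highest value of 0.118, 2.91 and 7.67 RPKM in DCKO and of 0.660, 1.28 and 3.12 RPKM in control libraries at E11.5. The DCKO range enclosed the control range. The log2 fold change was 0.46 (SE 0.37, adjusted p = 0.946 by limma). At E10.5 Mei4 had 5.39 and 2.82 RPKM in female DCKO and 0.673 RPKM in male DCKO, against 0.770 and 2.97 RPKM in female controls and 0.152 and 1.76 RPKM in male controls. These overlapped, and the log2 fold change was 0.50 (SE 0.72, adjusted p = 0.991 by limma), and 0.78 without male control 2.

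Spo11, which encodes the subunit that makes the cut, was at 1 RPKM or more in 1 of 10 DCKO libraries and in 4 of 8 control libraries at E11.5. Its lowest, median and highest values were 0, 0.169 and 1.24 RPKM in DCKO, and 0, 1.30 and 3.55 RPKM in control libraries. Values of 0 stood on both sides, in 3 DCKO and 2 control libraries, so the groups overlapped. With a mean under 1 RPKM over the table, Spo11 was not among the genes tested; its log2 fold change was -0.81 (SE 0.29), and in the limma fit without a filter the unadjusted p was 0.0142 and the adjusted p 0.898. At E10.5 Spo11 pointed the other way, with 7.58 and 1.31 RPKM in female DCKO and 0.404 RPKM in male DCKO, against 0.0253 and 0.274 RPKM in female controls and 1.21 and 1.15 RPKM in male controls. The fold change there was 0.92 on the log2 scale (SE 0.82, adjusted p = 0.991 by limma), and it was 0.19 without female DCKO 1, the library at 7.58 RPKM. No test was made between stages.

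Mei1, which is needed for break formation in both sexes, had values above 0 in 5 of 10 DCKO libraries and in 1 of 8 control libraries at E11.5. The highest was 0.184 RPKM in DCKO and 0.0169 RPKM in control libraries. At E10.5 Mei1 was listed at 0 in all 7 libraries. A 0 here may stand for an estimate that failed. No fold is given for Mei1, which enters only the counts and medians over all 10 genes.

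Of the strand exchange genes, Mnd1 and Psmc3ip held the highest medians of the 10 in both genotypes at both stages, while Dmc1 was below Rec114. Mnd1 had a lowest, median and highest value of 17.3, 63.0 and 198 RPKM in DCKO, and of 9.72, 31.9 and 242 RPKM in control libraries at E11.5. The highest value belonged to male control 4, and the control range enclosed the DCKO range. Its log2 fold change was 0.61 (SE 0.55, adjusted p = 0.946 by limma), and it was 0.02 without the 3 E11.5 libraries high in markers of other cells. At E10.5 Mnd1 had 76.9 and 60.4 RPKM in female DCKO and 63.7 RPKM in male DCKO, against 6.81 and 65.4 RPKM in female controls and 35.8 and 5.10 RPKM in male controls. The DCKO values lay close together, and 1 control value lay among them. The fold change was 1.81 on the log2 scale (SE 0.84), with an unadjusted limma p of 0.0602 and an adjusted p of 0.991.

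Psmc3ip had a lowest, median and highest value of 17.9, 45.1 and 166 RPKM in DCKO, and of 23.1, 43.6 and 98.8 RPKM in control libraries at E11.5. The medians lay close together, and the DCKO range enclosed the control range. The fold change on the log2 scale was 0.22 (SE 0.38, adjusted p = 0.985 by limma), and it was -0.04 without male DCKO 4, the library with the highest value. It was 0.35 without the 3 libraries high in markers of other cells and 0.07 with those markers as a covariate. Over libraries, Spearman's rho between Psmc3ip and the marker mean was -0.53 at E11.5 (n = 18) and -0.79 at E10.5 (n = 7), as a description of libraries that differ in genotype and sex. At E10.5 Psmc3ip had 39.6 and 61.9 RPKM in female DCKO and 34.2 RPKM in male DCKO, against 56.3 and 66.4 RPKM in female controls and 74.0 and 49.5 RPKM in male controls. The ranges overlapped, with a log2 fold change of -0.50 (SE 0.37, adjusted p = 0.991 by limma). The partners of 1 complex thus had fold changes of opposite sign at E10.5, neither past the threshold. Psmc3ip overlaps Mlx on the opposite strand. Mlx averaged 4.00 ± 3.51 RPKM in DCKO and 2.66 ± 1.64 RPKM in control libraries at E11.5 (SD, n = 10 and 8). At E10.5 Mlx averaged 6.60 ± 5.95 RPKM in DCKO and 9.61 ± 3.55 RPKM in control libraries (SD, n = 3 and 4). Whether reads of Mlx add to the Psmc3ip values was not tested at either stage.

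Dmc1, the meiosis-specific recombinase, had a lowest, median and highest value of 0.0470, 3.58 and 10.48 RPKM in DCKO, and of 0.441, 2.33 and 8.01 RPKM in control libraries at E11.5. The ranges overlapped, and the log2 fold change was 0.22 (SE 0.42, adjusted p = 0.991 by limma). At E10.5 Dmc1 had 1.49 and 6.86 RPKM in female DCKO and 5.61 RPKM in male DCKO, against 0.266 and 3.21 RPKM in female controls and 3.95 and 0.827 RPKM in male controls. The log2 fold change was 1.02 (SE 0.79, adjusted p = 0.991 by limma), with 1 DCKO library inside the control range.

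The crossover genes were low. Hfm1 had a lowest, median and highest value of 0.0136, 2.66 and 6.91 RPKM in DCKO, and of 0.994, 2.05 and 7.89 RPKM in control libraries at E11.5. Its log2 fold change was -0.00 (SE 0.47, adjusted p = 0.999 by limma), and its sign changed with the library left out. It was 0.23 without the 3 libraries high in markers of other cells and -0.02 with the marker covariate. At E10.5 Hfm1 had 2.40 and 1.50 RPKM in female DCKO and 4.35 RPKM in male DCKO, against 2.16 and 2.36 RPKM in female controls and 9.08 and 5.68 RPKM in male controls. Male values were above female values within both genotypes, in 1 male and 2 female DCKO libraries and 2 controls of each sex. Msh5 was split by sex in the same way at this stage, with its values given below. The share of all genes with such a split was not counted, and the sexes were not tested at this stage. Nothing is therefore concluded from the split. The genotype log2 fold change of Hfm1 was -0.34 (SE 0.60, adjusted p = 0.991 by limma).

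Msh4 was under 1 RPKM in 9 of 10 DCKO and in all 8 control libraries at E11.5, and the exception was female DCKO 6 at 6.50 RPKM. Its log2 fold change was 0.33 (SE 0.29 without the filter), and it was not among the genes tested. Msh5, whose product pairs with that of Msh4, was under 1 RPKM in 7 of 10 DCKO and in 7 of 8 control libraries. The exceptions were male DCKO 4 at 20.7 RPKM, male DCKO 3 at 2.05, female DCKO 2 at 1.23 and female control 3 at 3.31. In female DCKO 6, the high library of Msh4, Msh5 was at 0.0626 RPKM. The log2 fold change of Msh5 was 0.23 (SE 0.52, adjusted p = 0.991 by limma), and it was -0.26 without male DCKO 4 and 0.59 without the 3 libraries high in markers of other cells. At E10.5 Msh4 had 0 and 1.68 RPKM in female DCKO and 0.0761 RPKM in male DCKO, against 0.225 and 0.955 RPKM in female controls and 0 and 0.0427 RPKM in male controls. At the same stage Msh5 was listed at 0 in both female DCKO libraries and was at 1.27 RPKM in male DCKO, against 0.0147 and 0.643 RPKM in female controls and 1.30 and 4.65 RPKM in male controls. The log2 fold changes there were 0.08 for Msh4 (SE 0.37 without the filter) and -0.49 for Msh5 (SE 0.66, adjusted p = 0.991 by limma), the second being -0.25 without male control 2.

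**Figure D2:**
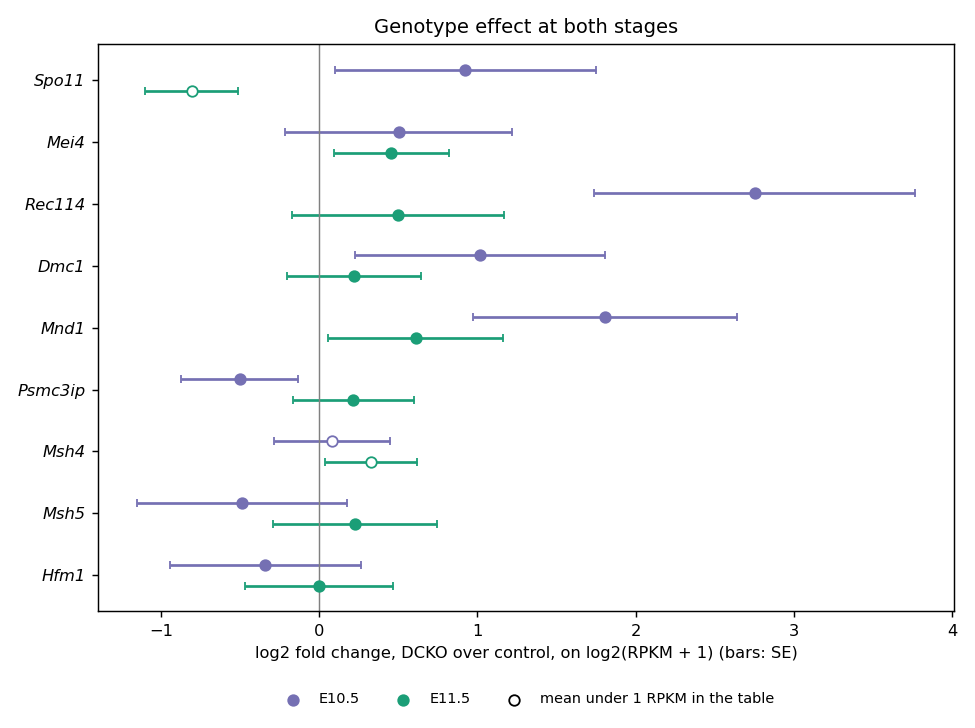
Genotype log2 fold change of 9 of the genes (DCKO over control, on log2(RPKM + 1)) with SE bars, E10.5 in purple above E11.5 in green for each gene; open points have a mean under 1 RPKM in that table. Rec114 at E10.5 has the largest value, 2.75, and Spo11 points in opposite directions at E10.5 (0.92) and E11.5 (-0.81).

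Counted over the 10 genes, 8 had a fold change above 0 and 2 below 0 at E11.5, with a median of 0.22. Those 8 include Mei1 and Msh4, which were not tested and were under 1 RPKM in most libraries. Among the 7 tested, 6 were above 0 with a median of 0.23, beside 45.0% of all genes tested. At E10.5, 5 of the 8 tested were above 0, beside 46.8%. Over the 19391 genes with any value the median was -0.04, and 7950 were above 0. At E10.5 there were 6 above 0, 3 below 0 and Mei1 at 0, with a median of 0.29, against -0.02 over 17029 genes, of which 7904 were above 0. At E11.5 7 of the 10 passed the filter of a mean of at least 1 RPKM, and 0 of the 7 passed limma's adjusted p threshold of 0.05, beside 0.0237% of 12667 genes. None of the 7 had an unadjusted p under 0.05, against 692 of all genes tested. Without the 3 libraries high in markers of other cells the median over the 10 genes was 0.29, and 0 passed. At E10.5 8 of the 10 passed the filter and 0 passed the threshold, beside 0% of 11584 genes; Rec114 was the 1 with an unadjusted p under 0.05, against 358 of all genes tested. Over the whole of the E11.5 table no member lay on 1 side of the controls in all 10 DCKO libraries, beside 0.00516% of genes above and 0.0258% below. At E10.5 1 member lay above and 0 below, beside 2.17% of genes below. Fold changes at this sample size carried SEs of 0.29 to 0.67 at E11.5 and of 0.37 to 1.02 at E10.5, so differences of that order could not be told from 0. Differences of several SEs could be missed as well. For the targeted Dnmt1, limma gave -2.07 on the log2 scale at each stage. That value passed at E11.5 (SE 0.34, adjusted p = 0.0355) but failed at E10.5 (SE 0.38, adjusted p = 0.991). At E11.5 Dazl, a gene of meiotic entry, had 2.08 (SE 0.41) and did not pass either (adjusted p = 0.113 by limma). The absence of calls at either stage therefore does not show that the members were unchanged. In bulk RNA of this kind, fewer cells with a transcript and less of it per cell cannot be told apart.

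**Figure D3:**
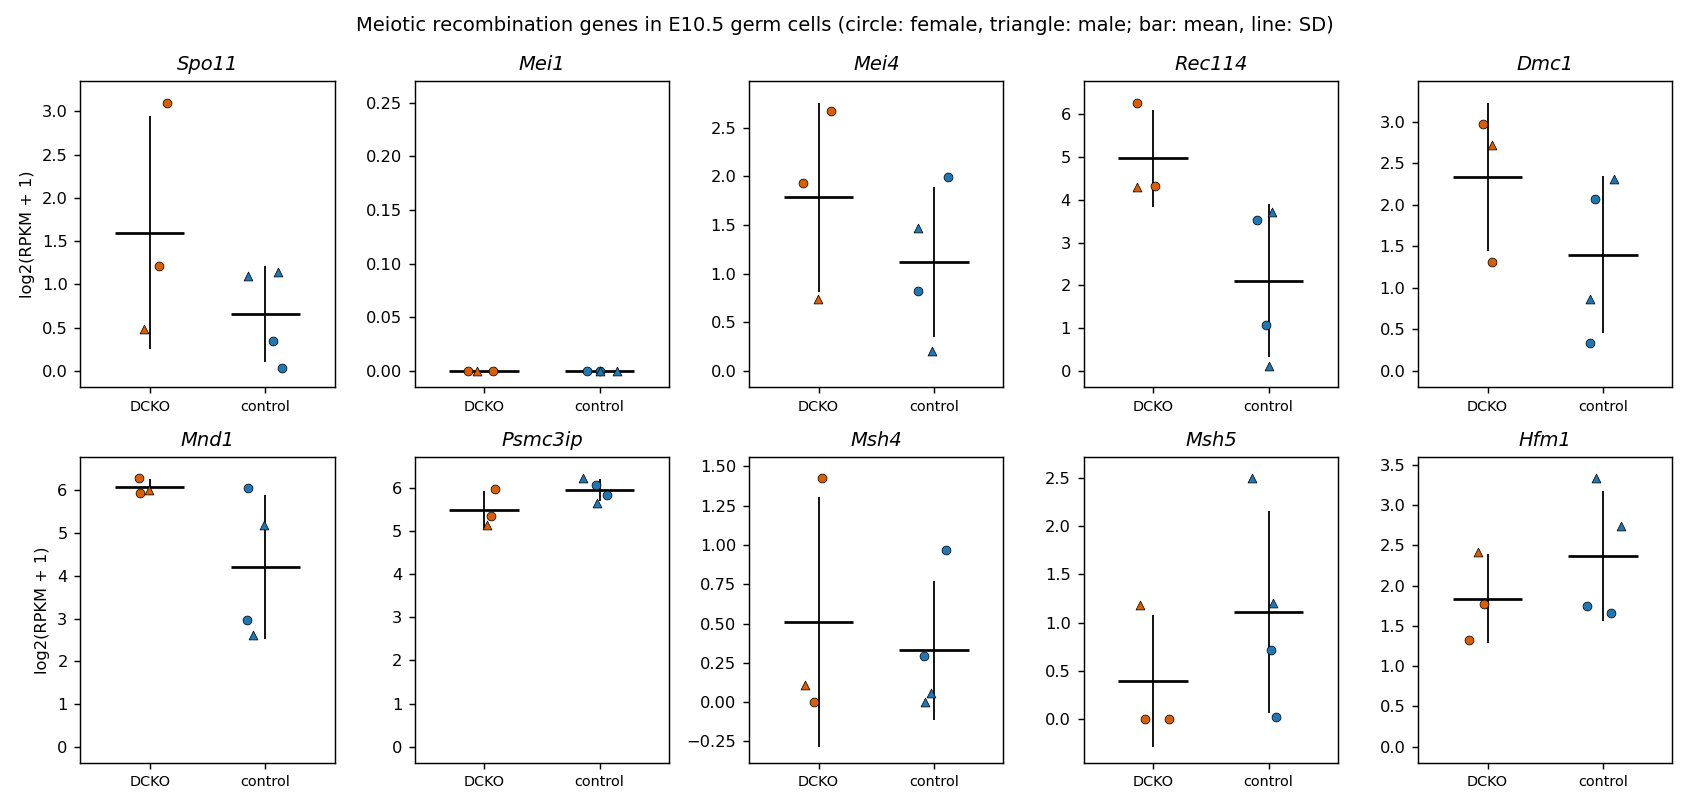
Level of each gene, as log2(RPKM + 1), in every E10.5 library, with DCKO in orange to the left of control in blue; circles are female and triangles male libraries, bars are means and vertical lines are SD. The 3 DCKO libraries lie above the 4 controls for Rec114, and Mei1 is at 0 throughout.

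The sexes were compared at E11.5, since meiotic timing differs between them later. Spo11 had 0 to 0.563 RPKM in female DCKO libraries with a median of 0.202, against 3.55, 0.928, 3.18 and 1.68 RPKM in female controls. All 6 female DCKO libraries lay below all 4 female controls, as did 0.712% of the 19391 genes, and no member lay above, beside 0.309%. In males Spo11 had 0, 1.24, 0.218 and 0 RPKM in DCKO, against 3.48, 0.129, 0 and 0 RPKM in control libraries, which overlapped. The log2 fold changes were -1.39 in females (SE 0.40, unadjusted p = 0.00285, adjusted p = 1, limma without the filter) and -0.22 in males (SE 0.43). Their difference, female minus male, was -1.17 (SE 0.59, adjusted p = 0.904 by limma without the filter).

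Mei4 had 1.18 to 7.67 RPKM in female DCKO libraries with a median of 3.95, against 0.758, 0.660, 1.43 and 1.16 RPKM in female controls. Of the female DCKO libraries, 5 lay above all controls and the lowest lay among them. In males Mei4 had 1.32, 3.41, 1.69 and 0.118 RPKM in DCKO, against 3.12, 1.02, 1.40 and 2.95 RPKM in control libraries, with full overlap. The fold change on the log2 scale was 1.25 in females (SE 0.49, limma unadjusted p = 0.0202, adjusted p = 1) and -0.34 in males (SE 0.54, adjusted p = 0.933 by limma).

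Dmc1 had 2.03 to 10.48 RPKM in female DCKO libraries with a median of 5.16, against 2.43, 3.67, 0.441 and 0.800 RPKM in female controls. In males it had 0.0470, 3.46, 2.78 and 0.736 RPKM in DCKO, against 2.22, 3.98, 1.34 and 8.01 RPKM in control libraries. Values of the genotypes overlapped in both sexes. The log2 fold changes were 1.31 in females (SE 0.57, limma unadjusted p = 0.0334, adjusted p = 1) and -0.87 in males (SE 0.62, adjusted p = 0.801 by limma).

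The differences between the sexes in the genotype effect were 1.59 for Mei4 (SE 0.73, limma unadjusted p = 0.0426) and 2.17 for Dmc1 (SE 0.84, limma unadjusted p = 0.0187), each with an adjusted p of 0.995. These 2 members had an unadjusted p under 0.05, as did 454 of the 12667 genes tested; 0 members passed, beside 0% of all genes. For Msh5 the fold change was -0.66 in females (SE 0.70) and 1.12 in males (SE 0.77), a difference of -1.78 (SE 1.04, adjusted p = 0.995 by limma), and the male value was 0.15 without male DCKO 4 and 1.80 without the 3 libraries high in markers of other cells. Rec114, Mnd1, Psmc3ip and Msh4 had values above 0 in both sexes. Within females 0 members passed the adjusted threshold, beside 0.00789% of genes, with 2 members and 275 of all genes at an unadjusted p under 0.05 (limma). Within males 0 passed, beside 0.0316%, with 0 members and 880 genes at an unadjusted p under 0.05 (limma). No member was without overlap in males, beside 0.562% of genes above and 1.26% below.

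**Figure D4:**
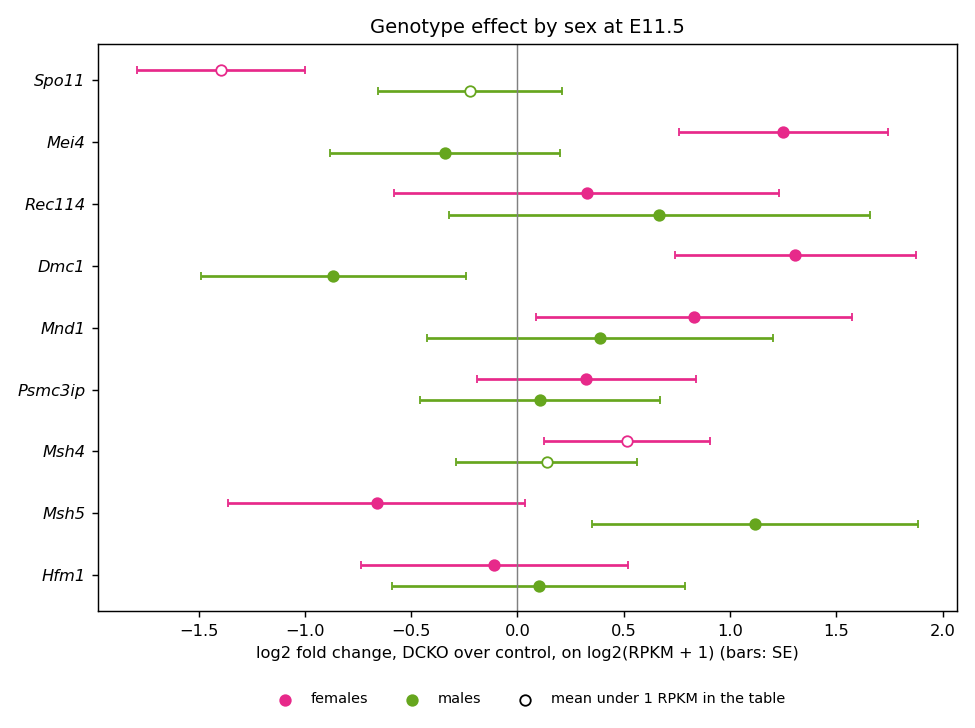
Genotype log2 fold change at E11.5 (DCKO over control, on log2(RPKM + 1)) with SE bars, females in pink above males in green; open points have a mean under 1 RPKM. Dmc1 is at 1.31 in females and -0.87 in males, Mei4 at 1.25 and -0.34, Msh5 at -0.66 and 1.12.

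Female and male libraries were also compared over both genotypes. The log2 differences, female minus male, ran from -0.54 for Mnd1 (SE 0.55) to 0.63 for Rec114 (SE 0.67). Mnd1 averaged 49.9 ± 25.5 RPKM in female and 91.8 ± 86.0 RPKM in male libraries, and Rec114 averaged 16.9 ± 10.8 RPKM in female and 12.8 ± 12.6 RPKM in male libraries (SD, n = 10 and 8). None of the 7 tested members passed, beside 0.0395% of genes, and none had an unadjusted limma p under 0.05, against 722 genes. Msh4 averaged 1.03 RPKM in female and 0.135 RPKM in male libraries, a difference in which female DCKO 6 holds the largest value.

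Over the 18 E11.5 libraries Spearman's rho between pairs of members ran from -0.40 to 0.44 over 45 pairs, with a median of 0.08; the libraries share the amplification method, and depth is unknown. For Mnd1 and Psmc3ip, whose products act together, rho was -0.02 over these libraries. The genes whose levels were most like those of Psmc3ip over the same libraries were Pik3cb (rho 0.84), a lipid kinase subunit, Elmo1 (0.82), which acts in cell migration, and Cks2 (0.80), a partner of cyclin-dependent kinases. Those most like Mnd1 were Eefsec (0.81), the elongation factor for selenocysteine, the histone gene Hist1h2bm (0.81) and Dph7 (0.75), of diphthamide synthesis. These are the highest of 12666 genes each and are given as a description, with no test.

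Among 19 other genes of meiotic recombination, 16 were found in the tables and 11 were tested at each stage; Ankrd31, Rnf212 and Shoc1 were not matched by symbol. None passed at E11.5, where 6 of 11 were above 0 with a median of 0.12, beside 45.0% of all genes tested above 0. None passed at E10.5, where 9 of 11 were above 0 with a median of 0.29, beside 46.8% of all genes tested above 0. Hormad1, an axis protein needed for breaks, averaged 23.99 ± 11.48 RPKM in DCKO and 15.2 ± 8.79 RPKM in control libraries at E11.5 (SD, n = 10 and 8), a log2 fold change of 0.64 (SE 0.44). Tex15, needed for meiotic break repair in males, was at 0.52 and Zcwpw1, a reader of the histone marks at recombination sites, at 0.45 (each limma adjusted p at least 0.946). At E10.5 the fold changes were 1.02 for Hormad1, 1.098 for Hsf2bp, a BRCA2 partner in meiosis, 0.67 for Zcwpw1 and 0.74 for Cntd1, of crossover maturation, each with a limma adjusted p of 0.991. Zcwpw1 averaged 26.0 ± 9.70 RPKM in DCKO and 21.04 ± 11.97 RPKM in control libraries at E11.5 (SD, n = 10 and 8).

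The 28 genes of recombinational repair, which work in all dividing cells, were all tested. None passed at either stage, with 13 of 28 above 0 and a median of -0.04 at E11.5, and 17 of 28 above 0 and a median of 0.25 at E10.5. Of all genes tested, 45.0% were above 0 at E11.5 and 46.8% at E10.5. Swi5, of homologous recombination, averaged 194 ± 96.8 RPKM in DCKO and 115 ± 34.7 RPKM in control libraries at E11.5 (SD, n = 10 and 8), with a log2 fold change of 0.76 (SE 0.25, adjusted p = 0.884 by limma). Nbn, of the complex that processes DNA ends, had -0.96 (SE 0.39, adjusted p = 0.902 by limma), Rad54l, a DNA-dependent ATPase, had -0.82 and Fignl1, an AAA ATPase, had 0.40. At E10.5 the named values were 1.34 for Slx4 and -0.77 for Eme1, both of joint resolution, and 1.14 for Rbbp8, of end resection, each with a limma adjusted p of 0.991.

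Of 5 genes of meiotic entry, 4 were found and tested. Dazl, an RNA-binding protein that lets germ cells enter meiosis, had 87.6 to 194 RPKM in DCKO and 4.50 to 81.8 RPKM in control libraries at E11.5, a log2 fold change of 2.08 (SE 0.41, adjusted p = 0.113 by limma). Sycp3, of the chromosome axis, had 1.05 (SE 0.62), Stra8, the retinoic acid target that starts meiosis, had 0.72 (SE 0.50), and Rec8, the meiotic cohesin, had -0.43 (SE 0.48), none past the threshold. Stra8 was listed at 0 in 4 of 10 DCKO and in 6 of 8 control libraries at E11.5, and its highest value was 17.4 RPKM in DCKO and 0.198 RPKM in control libraries. At E10.5 the values were 2.58 for Dazl, 1.74 for Stra8, 0.73 for Sycp3 and 0.29 for Rec8, each with a limma adjusted p of 0.991. The E10.5 value of Stra8 rested on male DCKO 1, at 19.7 RPKM, since both female DCKO libraries were listed at 0 and the highest control library was at 0.0235 RPKM.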

How the data were processed

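Primordial germ cells were profiled by RNA sequencing, and the authors deposited 1 table of RPKM values per stage. Per the labels' protocols, GFP-positive cells were sorted and their RNA was amplified with the Ovation RNA-Seq System V2 kit. Per the submitters' processing notes, the build mm9, TopHat2 2.1.0, Cufflinks 2.2.1 and Cuffdiff were used; which tool did what, with which gene models and strand setting, is not given in the sources used here. Of 37 labelled samples, 25 had values, and the 12 at E13.5 were not analysed here. No steps of whole reads were seen, so depth is unknown and no counting interval is given; the precision rests on the spread between libraries. The sum of RPKM ran from 516450 to 1121158 per library, and 8277 to 13200 genes were at 1 RPKM or more.

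Values were tested as log2(RPKM + 1) with limma 3.58.1 (intensity trend) in R 4.3.3, on genes averaging 1 RPKM or more over the table, with Benjamini-Hochberg adjustment over all of them, threshold 0.05, two-sided. On this scale the fold changes of low genes come out too small. The E11.5 fit had 4 group means (sex by genotype), and its genotype effect is the mean over the sexes. The E10.5 fit was additive in genotype and sex, since 1 male DCKO library was present. Genes under the filter have SEs and p from a fit without it. No test crosses the E10.5 and E11.5 tables. No pair of libraries was identical (highest r 0.878). The members and lists were chosen with earlier results of these data known. Genes named beyond the 10 members and Dnmt1 are, of each recombination list, the 4 with the smallest unadjusted p per stage, all meiotic entry genes (some genes under this rule are not reported here), and the 3 most alike to each of the 2 most abundant members; Nptn, Mlx and Eif2s3y were added for overlap and sex labels. Alternatives were other pseudocounts (0.5 and 0.1), no filter, an average of 5 RPKM or more, scaling by median of ratios, quantile normalization, weighted libraries, replicate blocks, a somatic marker covariate, other models, and leaving out each library. Leaving out together the libraries with a somatic marker mean over 2 was chosen after seeing the data.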

Additional observations from a re-analysis of the deposited data

Results flagged for a closer look

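In 6 of 39 tests, each of 1 member in 1 group of 4 or 6 E11.5 libraries, 1 library stood far from the others of its group for 1 member. Chance gives such a gap in about 1 in 20 tests only where values follow a normal distribution. These were unlogged RPKM values, many of them near 0, so the count cannot be set against that rate. Spo11 was at 3.48 RPKM in male control 1, with the next male control at 0.129. Mei1 was at 0.0169 RPKM in male control 3, with the other male controls listed at 0. Rec114 was at 1.09 RPKM in female control 3, with the next female control at 18.6. Msh4 was at 6.50 RPKM in female DCKO 6, with the next female DCKO library at 0.943. Msh5 was at 1.23 RPKM in female DCKO 2, with the next at 0.0626, and at 20.7 RPKM in male DCKO 4, with the next male DCKO library at 2.05.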

How the results depend on the processing

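No member passed the threshold in any of 166 fits under alternatives, from 14 other settings and 25 left-out libraries. Of 846 fold changes so obtained for the members reported, 820 kept the sign given in the report and 26 did not. The 846 leave out Mei1. Within each sex, and for the sex difference in the genotype effect, they cover only Spo11, Mei4, Dmc1 and Msh5. In the sex comparison they cover only Rec114 and Mnd1, the members with the extreme values there. Many came from leaving out 1 library. The share that kept its sign therefore does not speak for members not followed. At E11.5 Msh5 was -0.24 with a pseudocount of 0.1 and -0.0333 with library weights. Hfm1 was 0.0215 with median-of-ratios scaling, 0.22 with quantile normalization, 0.40 with library weights, 0.25 with a replicate block by title number and 0.23 without the 3 libraries high in somatic markers. Mei4 in males was 0.10 with quantile normalization. In the sex comparison Rec114 was -0.18 with library weights and Mnd1 was 0.85 with the title-number block, and the median of the members was -0.18 and 0.78 in these settings, against 0.27. Msh4 at E10.5 was -0.0587 with a pseudocount of 0.1. With single libraries left out, Psmc3ip ran from -0.0447 to 0.48, Msh5 from -0.26 to 0.48 and Hfm1 from -0.25 to 0.25 at E11.5, Spo11 in males from -0.49 to 0.30, Mei4 in males from -0.64 to 0.0180, and Msh4 at E10.5 from -0.28 to 0.44. The cause of these changes was not tested.

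Replicate numbers did not pair the samples: at E11.5 deviations of same-numbered libraries correlated at -0.23 to 0.25 (5 of 24 pairs over 0.1). Their median was 0.0086, against 0.0012 for other pairs. By title number the E11.5 correlations ran from -0.02 to 0.49 (7 of 16 over 0.1), with a median of 0.08, against -0.0046 for other pairs. With either number no pair was over 0.1 at E10.5. The main fits used neither number. With a replicate block the median of the members was 0.19 at E11.5 and 0.42 at E10.5, and 0 members passed. With the title-number block it was 0.29 and 0.21, and 0 members passed. At E11.5 Rec114 was then 0.06, against 0.50 in the main fit, and Mnd1 was 0.14, against 0.61. Over all genes, the E11.5 genotype calls ran from 2 to 5 over the alternatives against 3, females from 1 to 4 against 1, males from 1 to 4 against 4, the interaction from 0 to 1 against 0, the sex comparison from 1 to 51 (51 with library weights) against 5, and E10.5 from 0 to 11 against 0. Scaling moved the median of all genes by less than 0.1 on the log2 scale. With quantile normalization the median of the members was 0.41, against 0.22, for the E11.5 genotype effect and 0.07, against 0.27, for the sex comparison, and without the 3 libraries high in somatic markers the last was also 0.07. Depth is unknown, so the precision of values under 1 RPKM is not known.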
